A study of Mus musculus with 99 samples.

Results

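This account follows 10 genes from transmitter loading to the presynaptic release site of cochlear hair cells: Slc17a8, which encodes the vesicular glutamate transporter VGLUT3, and the ribbon and active zone scaffold genes Ctbp1, Ctbp2, Bsn, Pclo, Rims1, Rims2, Rimbp2, Erc1 and Erc2. The genes were taken by name from a table of read counts with 55291 gene symbols, of which 26782 had a read in any cell, and all 10 names were found. The first group held 32 wild-type outer hair cells (OHCs) at postnatal day 30 from mice of the genotype Slc26a5-CreER/+; Ai9/+, in which a Cre driven in OHCs and switched on by drug turns on the red protein tdTomato. The other held 67 cells at postnatal day 42 with the same Cre and 1 Rosa26Tbx2 allele, which adds the transcription factor Tbx2 to OHCs. These are called converted inner hair cells (cIHCs), as their titles do. Cells of both groups were from C57BL/6 mice, carried the Cre and were picked by hand for red fluorescence. Age and genotype differed together and cannot be told apart, and no title named an endogenous inner hair cell (IHC), so no level was set against IHCs.

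Hair cells release glutamate from vesicles tethered to a synaptic ribbon, a dense body built mainly from RIBEYE, the long product of the Ctbp2 gene. IHCs, which drive most of the auditory nerve, load their vesicles through VGLUT3 and release continuously with sound. OHCs mainly amplify vibration and have fewer afferent ribbon synapses. At the base of the ribbon, Bassoon, Piccolo, RIM, RIM-binding and ELKS proteins anchor it and hold calcium channels close to the vesicles.

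The cells carried between 4677682 and 13792672 counts each, with a median of 7443782 in OHCs and 7757517 in cIHCs. Each library is 1 cell and no label names an animal, so the cells of a group were summed to 1 sample and no test between groups was possible. Levels are counts per 1000000 counts (CPM) of the summed cells. Differences are given as the log2 of the cIHC level over the OHC level, and the 95% intervals of levels and ratios are exact and cover counting error only, since PCR copies were read without identifiers and are not separate molecules. The exact 95% intervals of shares of cells treat cells as independent draws, although cells may share animals. The level of Tbx2 was 0.0124 CPM in OHCs against 731 CPM in cIHCs. The summed level of 9 OHC markers was 55563 CPM in OHCs against 1031 CPM in cIHCs, and that of 9 IHC markers was 2491 CPM and 11623 CPM. The sex-linked genes also split the groups: at 10 CPM, 24 of 32 OHCs had Y-linked reads and 4 had Xist reads, against 12 and 55 of 67 cIHCs. A median of 6068.5 genes had reads in an OHC and 8546 in a cIHC. Of all genes, 10041 reached 10 CPM in 1 group or in both, and their median log2 ratio was 0.25.

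Of these 10 genes, 6 (Slc17a8, Rims2, Rimbp2, Pclo, Erc1 and Bsn) were at least 2-fold higher in cIHCs, and none was at least 2-fold lower. Ctbp2, Erc2 and Ctbp1 lay between these limits, and Rims1 was close to absent in both groups and did not reach 10 CPM. The 9 genes that reached it had a median log2 ratio of 1.49. Among all 10041 genes, 26.3% were at least 2-fold higher and 14.3% at least 2-fold lower. The count of genes at least 2-fold higher was 7 of 9 among cells with Xist reads, where Ctbp2 and Erc2 entered and Erc1 left. It was 4 among cells with Y-linked reads, where Bsn, Pclo and Erc1 left the 2-fold class and Ctbp2 entered it. Bsn was at 7.65 CPM in those OHCs and 9.08 CPM in those cIHCs, and so did not reach 10 CPM there. The share over all genes was not worked out for either of these sets, so these counts have no background beside them.

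Slc17a8 spans chr10:89574020-89621253 on the minus strand of mm10 (GENCODE M21), with 13 exon blocks. The annotation gives it 2 coding transcripts, of 601 and 417 codons, whose first bases are 89621253 and 89599815. RefSeq (GRCm38.p6) likewise gives 2 starts, and the 250 bases upstream of each are shown because this gene separated the groups most completely cell by cell and a T-box factor was the added agent. Capitals mark GGTGTG, the core of the T-box motif, searched on both strands (CACACC on the other). Both windows read 5′ to 3′ on the minus strand; apart from the last 4 bases of the first, no annotated exon overlaps them, and the second lies in an intron of the longer transcript.
Slc17a8, start of the longer transcript, chr10:89621250-89621499: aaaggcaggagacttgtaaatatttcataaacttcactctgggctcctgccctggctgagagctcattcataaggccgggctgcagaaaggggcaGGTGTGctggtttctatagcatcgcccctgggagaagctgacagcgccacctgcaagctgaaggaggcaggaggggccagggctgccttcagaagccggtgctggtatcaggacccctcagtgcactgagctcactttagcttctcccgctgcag
Slc17a8, start of the shorter transcript, chr10:89599816-89600065: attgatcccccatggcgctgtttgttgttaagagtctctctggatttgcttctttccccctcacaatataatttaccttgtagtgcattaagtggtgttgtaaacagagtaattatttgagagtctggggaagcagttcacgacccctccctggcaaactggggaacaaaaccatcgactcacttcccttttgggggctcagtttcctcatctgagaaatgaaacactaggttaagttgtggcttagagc
The first window held GGTGTG once, with its first base 155 bases before the start, and the second held none. Among the 11 windows found for 9 of the 10 genes, GGTGTG was in 2, those of Slc17a8 and Erc1, whose window held it at both 250 and 34 bases before the start. The same 6 letters were in 16.3% of 32851 mouse windows of that length. The longer form AGGTGTGA (TCACACCT on the other strand), which contains the shorter one, was in 0 of the 11 windows and in 1.12% of all. Rims2 had no window in the RefSeq table. The Slc17a8 windows held 5 and 3 CpG dinucleotides, that of Rimbp2 held 4 and those of Ctbp2 held 7 and 2. Those of Bsn, Ctbp1, Erc1, Erc2, Pclo and Rims1 held between 19 and 36. The Ctbp2 windows belong to starts at 133015247 and 133081860. No window covers the start at 133123367 of its transcript of 445 codons, so that start was not searched. A match of letters is not a binding site, and the counts do not tell the 2 transcripts apart.

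Slc17a8 was the gene with the least overlap between groups. In the 32 OHCs its level ran from 0 through a median of 0.136 to 594 CPM, and in the 67 cIHCs from 419 through 1093 to 2979 CPM. The OHCs fell on either side of a gap: 13 had no reads, 6 lay between 0.121 and 0.347 CPM, and 13 lay between 12.2 and 594 CPM. Only 2 OHCs, at 481 and 594 CPM, reached the lowest cIHC, and 64 of 67 cIHCs exceeded the highest OHC. The summed level was 69.2 CPM (95% interval 68.2 to 70.3) in OHCs and 1179 CPM (1176 to 1182) in cIHCs, a 17.0-fold difference with a log2 ratio of 4.09 (4.07 to 4.11). In 99.8% of the 2144 pairs of 1 OHC and 1 cIHC, the cIHC had the higher level. The highest OHC gave 26% of the OHC counts. Among Xist cells the log2 ratio was 2.95 (4 OHCs, of which 1 was that highest cell) and among Y-linked cells 4.16.

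Ctbp2, the source of RIBEYE and of the transcriptional corepressor CtBP2, had reads in 30 of 32 OHCs and in all 67 cIHCs. Its level ran from 0 through 59.7 to 272 CPM in OHCs and from 0.427 through 160 to 460 CPM in cIHCs. The ranges overlapped for most cells, since 27 OHCs reached the lowest cIHC and 7 cIHCs exceeded the highest OHC. The summed levels were 88.1 and 167 CPM, a 1.89-fold difference with a log2 ratio of 0.92 (0.90 to 0.94), just short of 2-fold. The cIHC was higher in 73.5% of pairs. The log2 ratio was 1.08 among Xist cells and 1.48 among Y-linked cells. The Ctbp2 gene (chr7:132987563-133124354, minus strand) has a separate RIBEYE start at 133015248, from which a transcript of 988 codons is read, whereas the transcript of 445 codons starts at 133123367. Counts per gene add both products, so these values are not a level of RIBEYE. Of the 6220 exon bases of Ctbp2, 314 also belong to Fgfr2 on the same strand.

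Ctbp1 encodes the paralogue CtBP1, a corepressor whose product is also found at ribbon and conventional synapses. Its level ran from 0 through 104 to 383 CPM in OHCs and from 0 through 117 to 325 CPM in cIHCs, and the groups overlapped throughout. The summed levels were 123 and 126 CPM, with a log2 ratio of 0.03 (0.01 to 0.05), and the cIHC was higher in 53.5% of pairs. The sign of this small ratio depended on the scaling: it was -0.16 with TMM factors, -0.17 with median-of-ratios factors and -0.05 with totals that leave out the most abundant genes. Set against each other, Ctbp2 made up 41.7% (41.2 to 42.1) of the Ctbp1 and Ctbp2 counts in OHCs and 56.9% (56.7 to 57.1) in cIHCs. Corrected for exon length the shares were 33.9% and 48.7%. Ctbp2 had more counts than Ctbp1 in 12 of 32 OHCs and in 44 of 67 cIHCs, and the share ran from 0% to 100% in OHCs and from 0.506% to 100% in cIHCs.

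**Figure D1:**
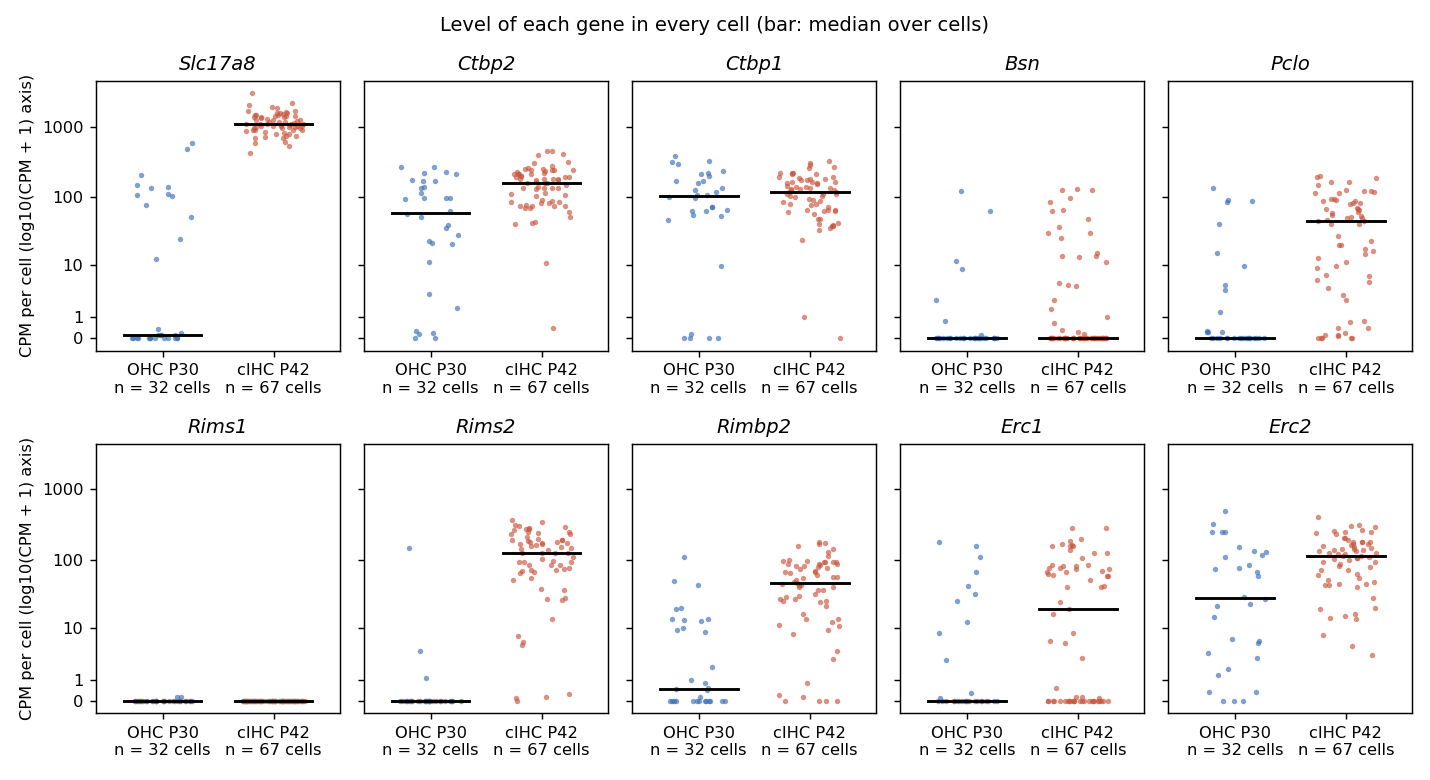
Level of each of the 10 genes in every cell, in CPM on a log10(CPM + 1) axis, for 32 OHCs at postnatal day 30 and 67 cIHCs at postnatal day 42, with a bar at the median over cells. Slc17a8 showed 64 cIHCs above the highest OHC and Rims2 30, whereas Ctbp1 and Erc2 had no cIHC above the highest OHC.

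Pclo encodes Piccolo, a giant scaffold of the active zone that hair cells are known to make largely as the short form Piccolino. Its median was 0 in OHCs, with a highest cell of 134 CPM, and 44.8 CPM in cIHCs, with a range from 0 to 199 CPM. At least 10 CPM was found in 6 of 32 OHCs (18.8%, 7.21 to 36.4) and in 45 of 67 cIHCs (67.2%, 54.6 to 78.2). The summed levels were 13.9 and 53.6 CPM, a log2 ratio of 1.95 (1.89 to 2.00), and the cIHC was higher in 78.4% of pairs. The size of the difference moved with the sex-linked groups. Among Y-linked cells Pclo was at 17.6 CPM in 24 OHCs against 27.7 CPM in 12 cIHCs, with a log2 ratio of 0.65. Among Xist cells the 4 OHCs held 2 counts against 58.2 CPM in 55 cIHCs, and the log2 ratio was 9.71 (7.86 to 12.76). Piccolo and Piccolino were not separated by these counts.

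Bsn encodes Bassoon, the partner of Piccolo that anchors the ribbon to the membrane. It was scarce in both groups, with a median of 0 CPM in each and a highest cell of 121 CPM in OHCs and 131 CPM in cIHCs. At least 10 CPM was found in 3 of 32 OHCs (9.38%, 1.98 to 25.0) and in 17 of 67 cIHCs (25.4%, 15.5 to 37.5). The summed levels of 6.06 and 14.2 CPM gave a log2 ratio of 1.23 (1.15 to 1.31), which was 0.98 relative to the median of all genes. In 46.6% of pairs both cells were at the same level, and the cIHC was higher in 36.8%. Of the OHC counts, 62% came from 1 cell, and the ratio was 2.42 when the top cell of each group was left out. Among Y-linked cells it was 0.25 and among Xist cells 2.62. Pclo made up 69.7% of the Pclo and Bsn counts in OHCs and 79.0% in cIHCs, but 85.8% and 80.3% without the cell of each group that was highest in Bsn, so 1 OHC sets the direction of this difference.

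The RIM proteins link vesicles and calcium channels at the release site, and the levels of their 2 long forms, Rims1 and Rims2, lay far apart in cIHCs. Rims2 had reads in 3 of 32 OHCs (9.38%) and in 66 of 67 cIHCs (98.5%). Of the OHCs, 1 was at 145 CPM, 29 were at 0 and the remaining 2 were under 10 CPM, whereas the cIHCs ran from 0 through 123 to 369 CPM, with 60 at 10 CPM or more. The summed levels were 4.09 and 137 CPM, a 33.7-fold difference with a log2 ratio of 5.07 (4.98 to 5.16), and 95.1% of all genes had a lower ratio. That 1 OHC held 96.4% of the OHC counts. When the top cell of each group was left out, OHCs held 36 counts (0.153 CPM) and the log2 ratio was 9.78. Among Xist cells Rims2 had no reads in 4 OHCs and 137 CPM in 55 cIHCs, and among Y-linked cells it was at 5.38 and 142 CPM, a log2 ratio of 4.72. The cIHC was higher in 96.5% of pairs, and 30 cIHCs exceeded the highest OHC.

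Rims1, the other long RIM, had 2 counts in OHCs, in 2 cells, and 0 counts in cIHCs. Reads in 0 of 67 cIHCs allow a share of cells with reads of up to 4.48%. No ratio was formed, because both sums were under the floor of 3 counts. Rims2 thus made up 99.8% of the Rims1 and Rims2 counts in OHCs and 100% in cIHCs. The OHC share describes mainly 1 cell, the only OHC with 10 CPM of the pair, which held 96.4% of the OHC Rims2 counts.

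Rimbp2 encodes RIM-BP2, which ties RIM to the voltage-gated calcium channel. Its level ran from 0 through 0.508 to 111 CPM in OHCs and from 0 through 46.4 to 177 CPM in cIHCs. At least 10 CPM was found in 9 of 32 OHCs (28.1%, 13.7 to 46.7) and in 56 of 67 cIHCs (83.6%, 72.5 to 91.5). The summed levels of 11.2 and 56 CPM gave a 5.01-fold difference, with a log2 ratio of 2.32 (2.27 to 2.38). The cIHC was higher in 84.0% of pairs, although only 7 cIHCs exceeded the highest OHC. The ratio was past 2-fold in both sex-linked groups, at 2.73 among Xist cells and 2.28 among Y-linked cells.

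Erc1 and Erc2 encode ELKS and CAST, which bind RIM, Bassoon and Piccolo in the active zone matrix. Erc2 had reads in 29 of 32 OHCs and in all 67 cIHCs, from 0 through 28.2 to 495 CPM in OHCs and from 3.45 through 113 to 412 CPM in cIHCs. The medians lay further apart than the summed levels of 89.2 and 122 CPM, whose log2 ratio was 0.46 (0.43 to 0.48), and no cIHC exceeded the highest OHC. The ratio of medians was 2.00 on the log2 scale, and the cIHC was higher in 69.4% of pairs. The 4 OHCs with Xist reads were low in Erc2, at 2.39 CPM against 120 CPM in 55 cIHCs, a log2 ratio of 5.65, while among Y-linked cells the ratio was 0.63.

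Erc1 was found in fewer cells than Erc2. Its median was 0 in OHCs, with a highest cell of 180 CPM, and 19.5 CPM in cIHCs, with a range from 0 to 281 CPM. At least 10 CPM was found in 8 of 32 OHCs (25.0%, 11.5 to 43.4) and in 35 of 67 cIHCs (52.2%, 39.7 to 64.6). The summed levels of 20.0 and 56.2 CPM gave a log2 ratio of 1.49 (1.45 to 1.54). In 22.4% of pairs both cells were at the same level, the OHC was higher in slightly fewer, and the cIHC was higher in 55.6%. This direction was not the same in both sex-linked groups. Among Y-linked cells Erc1 was lower in cIHCs, at 9.98 CPM in 12 cells against 20.4 CPM in 24 OHCs, a log2 ratio of -1.03, with reads in 4 of those cIHCs and 9 of those OHCs. Among Xist cells it was 0.77. Of its 16271 exon bases, 11.8% overlap Gm44317 on the other strand. Erc2 made up 81.7% of the Erc1 and Erc2 counts in OHCs and 68.5% in cIHCs, or 88.2% and 78.5% after correction for exon length.

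**Figure D2:**
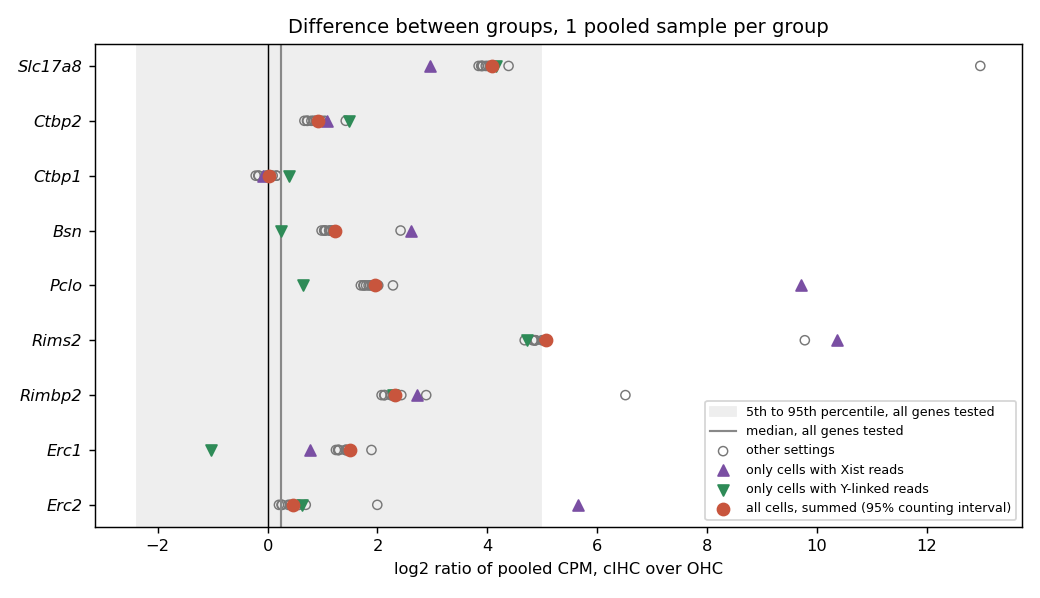
Log2 ratio of pooled CPM, cIHC over OHC, for the 9 genes with a ratio: filled circles are all cells summed, with the 95% counting interval as a line, open circles are other settings, and triangles are cells with Xist reads (4 OHCs, 55 cIHCs; that of Rims2 is a lower bound) or Y-linked reads (24 OHCs, 12 cIHCs). The grey band spans the 5th to 95th percentile of 10041 genes around their median of 0.25; Rims2 at 5.07 lay past it, and Erc1 was on the left of 0 only among Y-linked cells.

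**Figure D3:**
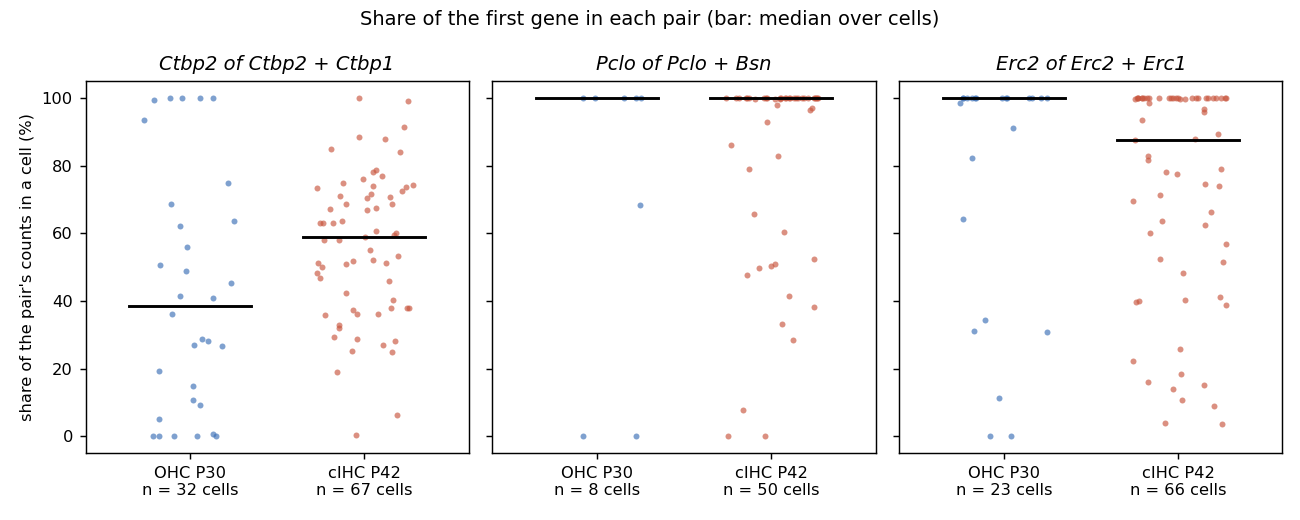
Share of a pair's counts held by its first gene, in percent, in each cell with at least 10 CPM of the pair together, with a bar at the median over cells. The Ctbp2 share had a median of 38.5% in OHCs and 58.9% in cIHCs, and the Erc2 share of 100% and 87.6%.

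Per kilobase of annotated exon, which allows levels of different genes to be compared only roughly, the order differed between groups. This length takes in the exons of all annotated transcripts, and the counts do not show which transcripts were in use. That holds for Pclo and Ctbp2 above all, whose long and short products were not separated. In cIHCs it was led by Slc17a8 at 250 CPM per kilobase, followed by Ctbp1 at 28.2, Ctbp2 at 26.8, Rims2 at 13.2, Erc2 at 12.6, Rimbp2 at 7.06, Erc1 at 3.45, Pclo at 2.39 and Bsn at 0.892, with Rims1 at 0. Only the step from Slc17a8 to Ctbp1 was wider than the spread of cells: from the lower to the upper quartile, cells ran from 192 to 302 CPM per kilobase for Slc17a8 and from 14.4 to 38.1 for Ctbp1, while every later pair of neighbours overlapped. In OHCs Ctbp1 led at 27.6 CPM per kilobase, followed by Slc17a8 at 14.7, Ctbp2 at 14.2, Erc2 at 9.17 and Rimbp2 at 1.41, and no neighbours were apart. With the transcript of the longest coding sequence in place of all exons, the order in cIHCs was the same, and in OHCs Ctbp2 (24.4) came before Slc17a8 (15.5), Erc1 (2.28) before Rimbp2 (1.73) and Rims2 (0.866) before Pclo (0.693).

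More of the 10 genes were found per cell in cIHCs. An OHC had between 1 and 6 of the 10 genes at 10 CPM or more, with a median of 3, and a cIHC between 4 and 9, with a median of 7. Detection was broader in cIHCs for most genes of the table: over the 10041 genes the median share of cells at 10 CPM was 31.3% in OHCs and 56.7% in cIHCs, and 81.9% of genes had the higher share in cIHCs. How much of the difference in detection of these 10 genes goes with that was not tested. The 10 levels summed to between 75.7 and 1175 CPM in an OHC and between 971 and 3282 CPM in a cIHC. Much of the distance between these sums is that of 1 gene. Slc17a8 alone ran from 0 to 594 CPM in OHCs and from 419 to 2979 CPM in cIHCs.

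**Figure D4:**
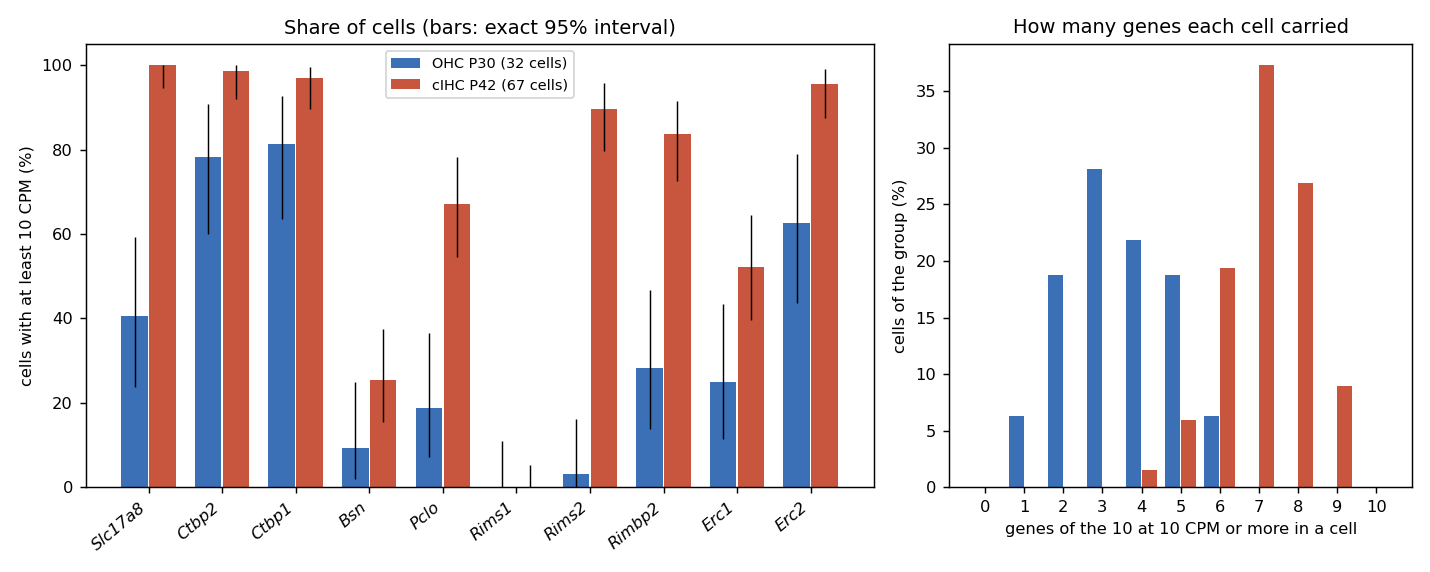
Left, percent of cells with at least 10 CPM of each gene, with exact 95% intervals, in 32 OHCs and 67 cIHCs; right, percent of cells of each group by how many of the 10 genes they carried at 10 CPM or more. Rims2 was at 10 CPM or more in 3.13% of OHCs and 89.6% of cIHCs, and the median number of genes was 3 in OHCs and 7 in cIHCs.

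Within a group, the measured levels of these genes showed little rank correlation from cell to cell. No reference pair of genes was set beside them, so low correlations do not show that the genes vary independently. Over the 67 cIHCs, the 21 pairs among the 7 genes with reads in at least 75% of cells had Spearman correlations of log2(CPM + 1) from -0.23 to 0.11, with a median of 0.01, and over the 32 OHCs the 3 pairs of Ctbp1, Ctbp2 and Erc2 had correlations from -0.16 to 0.14. The correlation with the level of Tbx2 in cIHCs ran from -0.28 for Erc2 to 0.15 for Ctbp2 and was -0.04 for Slc17a8. For Otof, the calcium sensor for exocytosis in IHCs, the largest correlation in cIHCs was with Rims2, at 0.32. In OHCs the largest in size was with Ctbp1, at -0.34. Cells of a group share library preparation and may share animals, and these values are descriptions of the picked cells.

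The genes most like each member over the cells of 1 group came from 3939 candidates in cIHCs and 2346 in OHCs. Each value below is among the 3 highest of all these candidates. How high the top values would be for unrelated genes was not tested, so the names are no sign of a link. With the minimum at a mean of 10 CPM, 2 of the 3 nearest genes stayed the same for Pclo and for Rims2 in cIHCs. All 3 stayed the same for every other member. In cIHCs Slc17a8 was most like Stau2 (rho 0.44), Ptbp3 (0.42) and Bri3bp (0.42). Ctbp2 was most like Rragc (0.47), Rab5b (0.39) and Ppm1h (0.38), and Ctbp1 like Bnip2 (0.48), Slc3a2 (0.47) and Ubb-ps (0.42). For the scaffold genes the nearest were Rhoa (0.42), Zfp260 (0.40) and Gm1673 (0.38) for Pclo, and Prdx5 (0.48), Cdk16 (0.45) and CT010467.1 (0.42) for Erc2. Rims2 was most like Ubn2 (0.39), Map3k20 (0.38) and Orc4 (0.37), and Rimbp2 like Add1 (0.42), Myl12a (0.42) and Eif4h (0.41). In OHCs Ctbp1 was most like Mroh1 (0.63), Hp1bp3 (0.56) and Lsm6 (0.49), Ctbp2 like mt-Nd6 (0.62) and Nars (0.54), and Erc2 like H3f3b (0.61), Acbd7 (0.59) and Tjap1 (0.55). None of the 10 genes was among the 3 nearest of another, and no gene was named for the same member in both groups.

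A list of 42 other genes of vesicle loading and the release site put these values in context. Of the 28 that reached 10 CPM, 12 were at least 2-fold higher in cIHCs, 3 were at least 2-fold lower and 13 lay between, against 26.3% higher and 14.3% lower of all 10041 genes. The median log2 ratio was 0.50. Among the partners of the scaffold, Rims3, a short RIM, was at 77.6 CPM in OHCs against 179 CPM in cIHCs (log2 ratio 1.21). The liprin genes Ppfia4 (42.8 and 88.3 CPM, 1.04) and Ppfibp2 (16.3 and 59.6 CPM, 1.87, or 2.69 without the highest cell of each group) and the scaffold kinase gene Cask (38.5 and 98.7 CPM, 1.36) were also past 2-fold.

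The calcium channel that these scaffolds hold in place split by subunit. Cacna1d, which encodes the pore of the hair cell channel CaV1.3, was lower in cIHCs, with cells from 4.50 through 280 to 1076 CPM against an OHC median of 735 CPM, and summed levels of 706 CPM in OHCs against 311 CPM in cIHCs (log2 ratio -1.18). Its auxiliary subunit gene Cacnb2 was higher, at 21.6 and 56.4 CPM (1.39). Of the Rab3 regulators, Madd, an exchange factor for Rab3, was at 160 and 400 CPM (1.32), whereas Rab3ip, which encodes the Rab8 exchange factor Rabin8, was at 642 and 269 CPM (-1.26).

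Most of the other vesicular transporters on that list had no reads or nearly none. Slc17a7 (VGLUT1), Slc32a1 (GABA and glycine) and Slc18a3 (acetylcholine) had no reads in either group, nor did Rph3a, a Rab3 effector, and Slc17a6 (VGLUT2) had 1 count in OHCs and none in cIHCs. Reads in 0 of 32 OHCs allow a share of cells with reads of up to 9.38%, and 0 of 67 cIHCs of up to 4.48%. Rims4, Ppfibp1, Lin7a, Unc13c, Rab3b and Rab3c had no reads in OHCs and between 1 and 3639 counts in cIHCs, the most being those of Rab3b at 6.69 CPM. Rimbp3 had 10 counts in OHCs and none in cIHCs.

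Most of these scaffold genes are also active in neurons. The summed level of 10 spiral ganglion neuron markers was 293 CPM in OHCs (0 to 787 CPM over cells) and 778 CPM in cIHCs (176 to 2094 CPM). Of 7 of them that reached 10 CPM, 5 were at least 2-fold higher and 1 at least 2-fold lower in cIHCs, again beside 26.3% and 14.3% of all genes, while Prph and Slc17a7 were at 0 in both groups and Nefh at 0 in OHCs. Markers of glia summed to 14.3 and 8.19 CPM, of supporting cells to 59.3 and 23.6 CPM and of blood and macrophages to 4.21 and 53.3 CPM, of which C1qb alone gave 48.2 CPM in cIHCs. Cx3cr1, C1qa and Aif1 were at 0 in both groups and C1qb at 0 in OHCs, and among the other lists Slc1a3 was at 0 in OHCs and Epyc, Prox1 and Pmp22 at 0 in cIHCs. The IHC markers Rprm, Slc7a14 and Shtn1 were at 0 in OHCs. The part of other cells in the levels of the 10 genes was not tested.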

How the data were processed

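The authors deposited 1 table of read counts per gene and cell, taken as raw because they are whole numbers with unequal totals. Per the labels' protocols, picked cells were amplified with Smart-Seq HT and tagmented with TruePrep, and per the submitters' processing notes HISAT2 2.2.1, StringTie 2.2.1, featureCounts 2.0.1 and mm10 were used. Annotation, strand setting and filters are not given in the sources used here. OHCs of an earlier study that the design text mentions were not analysed here. The table had 0 columns of no sample and 0 entries without a gene name. No cell was left out, and 0 pairs of cells of a group were identical.

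Cells were assigned to groups by title and summed per group, and pooled CPM was summed counts over summed totals. Intervals (95%) were exact Poisson for levels, exact conditional binomial for ratios and Clopper-Pearson for shares. The limit beside a share of 0 is 3 cells of the group. Ratios against 0 used a floor of 3 counts, and genes needed 10 CPM in 1 or both groups to enter counts past 2-fold. The 10 genes and all lists were chosen with earlier results of these data known. Beyond the 10, the genes named are those of the list of 42 with at least 50 CPM and a 2-fold difference or at 0 in a group; for a member with reads in 75% of a group's cells, the 3 highest Spearman correlations among genes with a mean of 50 CPM and reads in 75% of cells; and markers at 0. A gene that this rule picks for Ctbp2 in OHCs is not reported here. Gene positions came from GENCODE M21 (96.4% of symbols matched), and upstream sequence from RefSeq GRCm38.p6.

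The other settings were a mean or a median over cells, leaving out the highest cell, TMM (edgeR 4.0.16, R 4.3.3) or median-of-ratios scaling, totals without mitochondrial or the 10 most abundant genes of either group, Xist or Y-linked cells at 10 CPM, leaving out cells with few genes, thinning to 5770000 reads (29 OHCs and 66 cIHCs), no minimum of CPM, and, for correlations, a mean of 10 CPM. Centring on all genes and another gene length were added after seeing the data, as was leaving out the highest cell for shares of gene pairs and for the list of 42. The ratio step was tested on simulated counts that gave every gene the same relative spread between cells. The ratio came back within a set margin for 91.5% of 200 changed genes and 88.7% of unchanged genes. Genes with most of their counts in 1 cell were not simulated, so this checks the arithmetic and not the error for such genes. All else ran in Python 3.11.15 (scipy 1.17.1, pandas 2.3.3, numpy 2.4.6, matplotlib 3.10.9).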

Additional observations from a re-analysis of the deposited data

How the results depend on the processing

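Under the 12 alternatives, the count of genes at least 2-fold higher in cIHCs was between 4 and 7. It was 4 for the ratio of medians and for Y-linked cells, and 5 relative to the median of all genes. For Xist cells and thinned cells it was 7, and 6 otherwise. By the ratio of medians the 4 were Slc17a8, Rimbp2, Erc2 (2.00) and Ctbp2 (1.42), of which Erc2 and Ctbp2 were under 2-fold by summed levels. The share over all genes was worked out only for all cells summed, with and without the minimum of CPM. The count of genes at least 2-fold lower was 0 except among Y-linked cells, where it was 1 (Erc1, log2 ratio -1.03, the opposite of its direction over all cells); the cause was not tested. Without a minimum of CPM, 42.6% of all genes were at least 2-fold higher and 18.8% at least 2-fold lower. TMM and median-of-ratios factors moved the median of all genes by -0.19 and -0.20 on the log2 scale. Slc17a8, Rims2 and Rimbp2 were past 2-fold under every alternative that gave a ratio. The ratio of medians was 12.97 for Slc17a8 and 6.51 for Rimbp2, where the OHC median is near 0, and no ratio of medians exists for Bsn, Pclo, Rims2 and Erc1, whose OHC median is 0. Only 4 OHCs had Xist reads, which limits each value given for that set. No paired analysis was possible because the replicate numbers only count cells and no result comes from a test.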

Other observations

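Several low members of the release-site list, chosen after their values were seen, stood far apart between the groups. Unc13b, a vesicle priming factor, had 2 counts in OHCs against 10.4 CPM in cIHCs, with a log2 ratio of 10.29 (8.44 to 13.34). It was at 10 CPM or more in 10 of 67 cIHCs, and 1 cIHC held 31.2% of the cIHC counts. Without the top cell of each group, OHCs held 1 count and cIHCs were at 7.27 CPM, under 10 CPM (log2 ratio 10.75). Cacna2d2, an auxiliary calcium channel subunit gene, was at 0.401 and 12.5 CPM (4.96), and Slc18a2, the vesicular monoamine transporter gene, at 0.781 and 17.7 CPM (4.50) with 17 cIHCs at 10 CPM or more. Kif1a, a kinesin gene for synaptic vesicle precursors, was at 4.09 and 30.9 CPM (2.92). For these 3 genes 1 OHC held most of the OHC counts, and with the top cell of both groups left out the log2 ratios were 7.94, 6.97 and 5.08. Summed Unc13d was lower in cIHCs, at 10.8 and 1.90 CPM (-2.51, or -2.13 without the highest cells). Reads of any number were in 5 of 32 OHCs and 20 of 67 cIHCs. The cIHC was higher in 27% of pairs against 13.9% with the OHC higher. At 10 CPM or more, however, it was in 2 of 32 OHCs (6.25%) and 4 of 67 cIHCs (5.97%), so the shares were alike. Detection with any read was broader in cIHCs in general, with a median of 6068.5 genes in an OHC and 8546 in a cIHC.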
